A study of Gossypium hirsutum with 6 samples.

Results

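Chalcone synthase CHS3, dihydroflavonol reductase DFR and the cadinene synthase cdn1 are enzymes of the flavonoid and gossypol pathways of cotton. They were taken by name: a probe set counted where the platform's gene table pairs it with exactly 1 gene and the RefSeq synonyms of that gene include CHS3, DFR or cdn1. This gave 3 genes with 1 probe set each, out of 520 genes on 697 probe sets with a single gene. The genes were selected on their lower log2 values in drought arrays, which were already known from this same comparison, so those values are given as a description without a test. In leaves of droughted plants CHS3 signal was 11.0-fold lower, DFR signal 15.0-fold lower and cdn1 signal 3.59-fold lower than in control leaves, and the arrays of the 2 groups did not overlap for any of the 3.

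Chalcone synthase joins coumaroyl-CoA with malonyl-CoA to make chalcone, the entry step of flavonoid synthesis. Dihydroflavonol reductase acts further down, reducing dihydroflavonols to the leucoanthocyanidins from which plants make anthocyanins and proanthocyanidins. Cadinene synthase belongs to another branch of metabolism: it cyclises farnesyl diphosphate to delta-cadinene, the committed step towards gossypol and related sesquiterpenoids, which cotton stores in pigment glands and makes as defence compounds.

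The plants were upland cotton (Gossypium hirsutum, cultivar Bikaneri Nerma) in open field plots, 6 plots per arm, and leaf RNA was measured on 6 Affymetrix cotton arrays. The 3 drought samples came from plants whose irrigation was stopped at peak flowering and which were sampled 18 to 19 days later, at a soil moisture of 19.5%, or 50% of that in normal control plots. A shelter covered the drought plots only during rain. The 3 control samples came from plots without the drought treatment. The labels call the samples of an arm biological replicates and do not say which plots they came from, and the errors and p-values given cover variation among these samples alone.

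All values are the authors' log2 values, centred so that the median of each probe set over the 6 arrays is 0. They show differences between arrays and hold no absolute level, so levels of different genes cannot be set side by side. The centring also makes the pair of arrays in the middle of the order mirror images of each other. Where all drought arrays lie below all control arrays, the lowest control value and the highest drought value therefore have the same size with opposite sign. The RNA came from bulk leaf tissue, so fewer cells of a type and less RNA per cell cannot be told apart. The leaf label could not be checked by presence of transcripts in centred values. Of 7 leaf marker names, 1 was found, the Rubisco activase gene RCA1, which rose by 0.60 in drought (SE 0.07, n = 3 arrays per group, limma adjusted p = 8.33e-05).

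Over the 24029 tested probe sets, 55.7% passed a limma adjusted p of 0.05, 35.3% as higher and 20.4% as lower in drought, and for 22.7% all drought arrays lay below all control arrays. When each array was centred on its hybridisation spike-in controls, which detect RNA added to the labelled sample, 3989 probe sets passed as higher and 7255 as lower, in place of 8485 and 4895. The median of the differences as deposited was 0.12 on the log2 scale. All 3 members passed as lower and all 3 were without overlap between groups, and since they were selected on being lower, nothing is read from these counts against the 20.4% and 22.7%.

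CHS3 (LOC107912380) was read from a probe set whose plain _at suffix marks probes designed to match a single transcript. In order of replicate number, its log2 values in control arrays were 1.71, 1.69 and 1.61, and those in drought arrays were -1.94, -1.61 and -1.83. The control arrays lay close together and every drought array lay far below them, with replicate 2 the least reduced. Group means were 1.67 ± 0.06 in control and -1.79 ± 0.17 in drought (SD, n = 3 each). The drought minus control difference was -3.46 on the log2 scale (SE 0.10), and the nearest arrays of the groups were 3.21 apart.

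DFR (LOC107957957) was read from an _s_at probe set, a suffix for probes that match several transcripts of the array design. Control arrays gave log2 values of 1.83, 1.87 and 1.81, and drought arrays -1.81, -2.32 and -2.07, both from replicate 1 to 3. The control arrays lay close together, while the drought arrays were spread out, and replicate 2, the highest of the drought arrays for CHS3, was the lowest for DFR. Means were 1.84 ± 0.03 in control and -2.07 ± 0.25 in drought (SD, n = 3 each). The difference was -3.90 (SE 0.12), and the groups were 3.62 apart at their nearest arrays.

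The gene listed under the synonyms cdn1, cdn1-C4 and cdn1-C5 (LOC107903500) was read from an _x_at probe set. The suffix marks probes that can also match other sequences of the array design, so the signal is not shown to come from a single cadinene synthase gene. The log2 values were 0.90, 1.07 and 0.79 in the control arrays and -1.01, -0.96 and -0.79 in the drought arrays, in replicate order. The groups again stood apart, and the spread within each was alike. Means were 0.92 ± 0.14 in control and -0.92 ± 0.11 in drought (SD, n = 3 each). The difference was -1.84 (SE 0.10), with 1.58 between the nearest arrays.

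**Figure D1:**
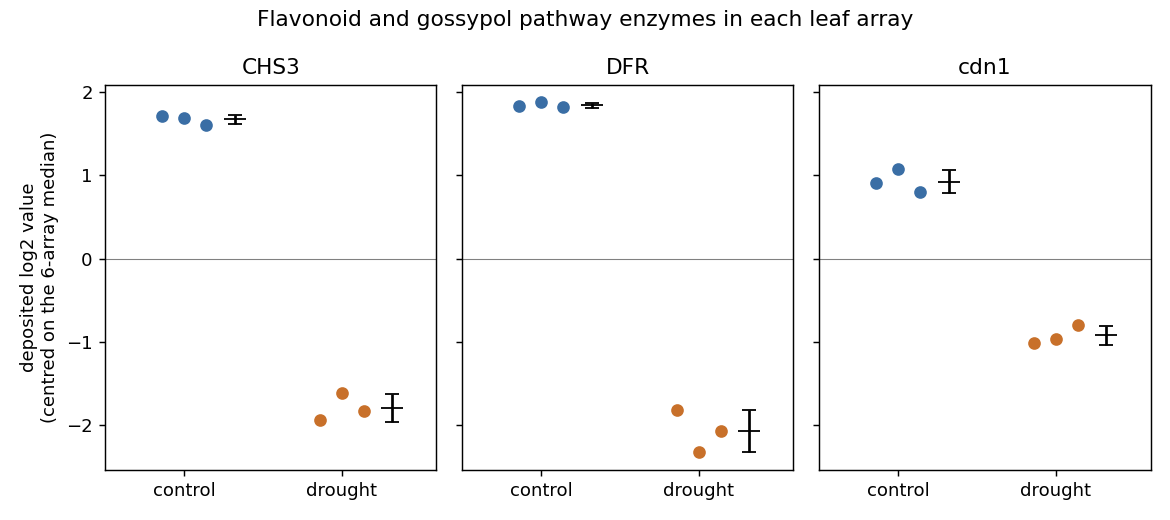
Deposited log2 value, centred on the 6-array median (vertical axis), of CHS3, DFR and cdn1 in each array; points are the 3 control and 3 drought arrays in replicate order, and bars beside them are the mean ± SD. Every drought array lies below every control array, and the gap is 3.21 for CHS3, 3.62 for DFR and 1.58 for cdn1.

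The drought minus control difference of DFR less that of CHS3 was -0.44 log2 units. Less that of cdn1 it was -2.06, so the fold for DFR was 4.16 times that for cdn1. Both flavonoid enzymes thus had larger differences than the sesquiterpene enzyme on the probe sets read, and that of cdn1 can also match other sequences. These gaps between members were not tested, since all came from the contrast by which the genes were known. Set among all tested probe sets, 293 (1.22%) had a difference as low as that of DFR or lower, 407 (1.69%) for CHS3 and 1179 (4.91%) for cdn1. Among the 246 genes with an older name, counted on 1 probe set per gene, DFR stood at position 18 from the lowest difference, CHS3 at 21 and cdn1 at 37.

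**Figure D2:**
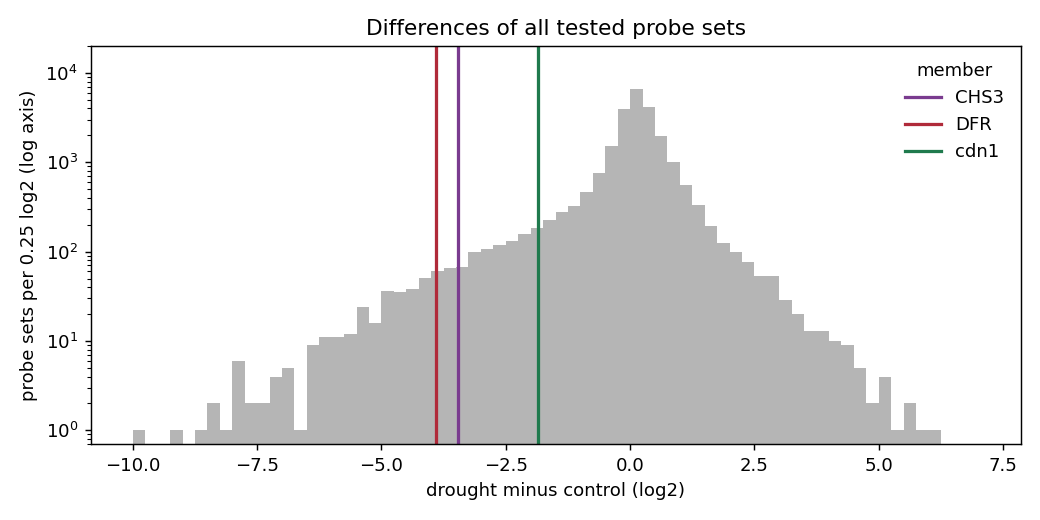
Drought minus control log2 difference (horizontal axis) of the 24029 tested probe sets, counted in bins of 0.25 log2 units on a log axis, with vertical lines at DFR (-3.90), CHS3 (-3.46) and cdn1 (-1.84). All 3 lines stand in the left tail, with 293, 407 and 1179 probe sets at or below them.

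The spread within groups is given as a description, since the members were chosen with earlier results of this comparison known. For DFR the SD among drought arrays was 8.18 times that among control arrays, a ratio exceeded by 3.19% of tested probe sets. For CHS3 it was 3.02 times, exceeded by 18.2%, and for cdn1 0.81 times, exceeded by 72.8%. With 3 arrays per group these ratios are descriptions and were not tested. The pooled SD within groups was 0.18 for DFR, 0.13 for CHS3 and 0.13 for cdn1, against a median of 0.11 over tested probe sets. No drought array was the lowest for all 3 genes: replicate 1 was lowest for CHS3 and cdn1 and replicate 2 for DFR.

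Other enzymes of these pathways were looked up by name. The list covered phenylpropanoid and lignin, flavonoid, and terpenoid and gossypol enzymes; 30 RefSeq genes carry such a synonym, and 6 of them have a probe set with a single gene, the 3 members among them. A caffeoyl-CoA O-methyltransferase gene, whose synonym CCoAMOT2 has its letters in another order than the pattern, was added after the names and values had been seen. Another 3 probe sets are paired with several genes that include a listed one and are left unnamed. Phenylalanine ammonia-lyase, chalcone isomerase, farnesyl diphosphate synthase and the other listed steps without a probe set of a single gene were not analysed here. Roles of CHS2, CHS6, CCR1 and CCoAMOT2 are read from their abbreviations, since the tables used hold no product names. The same holds for the similar genes and the fibre markers named below.

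All 4 genes besides the members, CHS2, CHS6, CCR1 and CCoAMOT2, fell on the probe set standing for the gene, and none rose, where 20.4% of all tested probe sets were lower. Those of CHS2, CHS6 and CCR1 were _s_at probe sets, which match several transcripts, and that of CCoAMOT2 was an _a_at probe set. None had the plain _at suffix, so these falls are not shown to come from a single gene each. Among the 246 genes with an older name, on 1 probe set per gene as here, 104 were lower and 78 higher, and for 113 all drought arrays lay below all control arrays. The median difference of the 4 was -0.81, against -0.11 for those 246 genes and 0.12 for every tested probe set together. On all 7 of their probe sets, 5 were lower and 2 did not pass; the median was -0.46. Earlier results of these data had already shown that genes of this list fell, so these counts are no separate support.

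The other chalcone synthase genes had smaller differences than CHS3. CHS2 (LOC107927759) has 4 probe sets in 2 sequence clusters of the array. On the sense probe set of the cluster that held the larger differences, the log2 values of the control arrays were 0.67, 0.81 and 0.42 and those of the drought arrays -0.42, -0.68 and -0.74, without overlap. CHS2 fell there by 1.25 (SE 0.12, n = 3 per group, limma adjusted p = 3.54e-05), and on the antisense-design probe set of that cluster the difference was -0.69 (SE 0.17, limma adjusted p = 0.00825).

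The other cluster of CHS2 gave another picture. On its sense probe set the values were -0.05, -0.05 and 0.09 in control and -0.08, 0.05 and 0.19 in drought, in replicate order, so the groups overlapped. The difference was 0.06 (SE 0.09, limma adjusted p = 0.617), and -0.04 with each array centred on its median. The antisense-design probe set of this cluster, the only CHS2 probe set with a plain _at suffix, gave -0.09 (SE 0.09, limma adjusted p = 0.423). Within arrays, the sense probe set of the cluster that fell minus that of the cluster that did not pass ran from 0.33 to 0.85 in control and from -0.94 to -0.34 in drought. That is a difference of -1.31 between their responses, which is given without a test because the pair was compared after its values had been seen.

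CHS6 (LOC107934821), another chalcone synthase, had values of 0.01, 0.45 and 0.31 in the control arrays and -0.25, -0.01 and -0.20 in the drought arrays. The groups only just separated, by 0.02. CHS6 fell by 0.41 (SE 0.12, limma adjusted p = 0.0191), and the call was lost when any of control replicate 2, control replicate 3, drought replicate 1 or drought replicate 3 was left out, with adjusted p-values from 0.0508 to 0.0733. Differences of CHS2 and CHS6 from CHS3 in response were not tested, because CHS3 was picked for its fall.

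On the lignin side, where both enzymes act on CoA esters of hydroxycinnamic acids, CCoAMOT2 (LOC107945134) had values of 0.54, 0.65 and 0.49 in control and -0.49, -0.76 and -0.53 in drought, in replicate order. It fell by 1.15 (SE 0.09, limma adjusted p = 8.67e-06), with all drought arrays below all control arrays. CCR1 (LOC107951749), under the abbreviation of cinnamoyl-CoA reductase, had values of 0.08, 0.22 and 0.31 in control and -0.08, -0.34 and -0.36 in drought. It fell by 0.46 (SE 0.10, limma adjusted p = 0.00417), also without overlap.

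**Figure D3:**
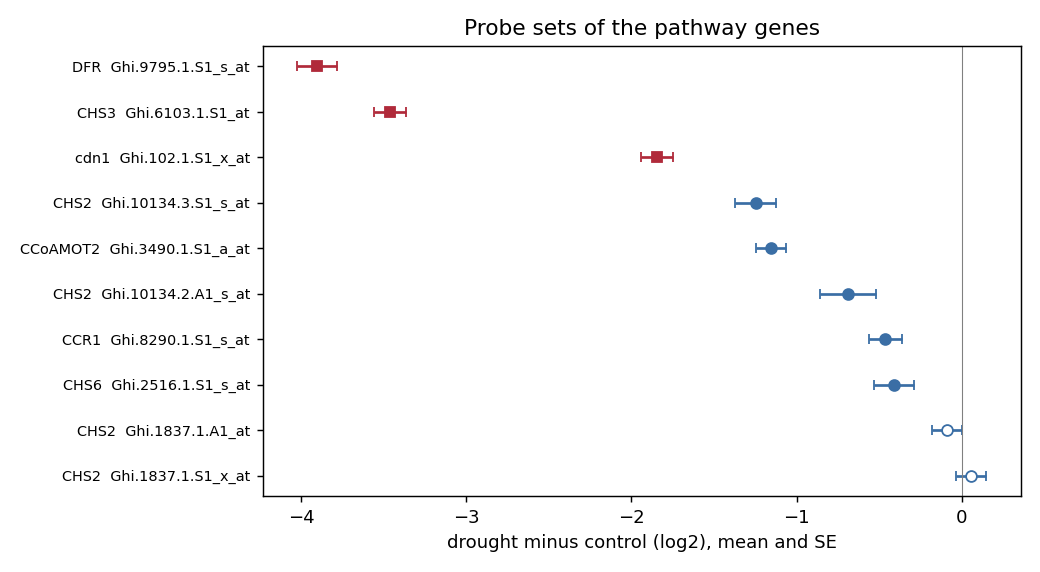
Drought minus control log2 difference (horizontal axis) of the 10 probe sets of pathway genes; squares are the members, circles the other genes, bars the SE of the limma fit, and open symbols probe sets that did not pass. DFR, CHS3 and cdn1 have the lowest values, and 2 probe sets of CHS2 lie next to 0.

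The named genes with the most similar values across the 6 arrays were found by the root mean square distance between the deposited log2 values, on 1 probe set per gene and over 245 other genes. Nearest to DFR were Ghfe1 (distance 0.06, difference -3.88), the expansin EXPA11A (0.10, -3.96) and bnlghi6863 (0.13, -4.04). Nearest to CHS3 were the fasciclin-like arabinogalactan protein genes FLA7 (0.15, -3.43) and FLA11 (0.25, -3.02) and the fibre gene E6 (0.26, -3.07). Among the 3 nearest to cdn1 were the stearoyl-ACP desaturase gene sad1 (0.15, -1.84), whose array cluster is also paired with other genes, and the alpha-tubulin gene TUA6 (0.15, -2.01). By the same measure DFR and CHS3 were 0.33 apart, CHS3 and cdn1 0.82 and DFR and cdn1 1.05. None of the members was among the nearest of another. In centred values this distance mostly follows the size of the drought minus control difference, on which the members were selected. It is therefore no separate sign of likeness or unlikeness.

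Most of the fibre markers found fell in drought, as the members did, and 1 rose. Fibres are the seed hairs of cotton, and of 7 fibre marker names fixed, 5 genes were found: H6L (-4.75), Ghfe1 (-3.88), E6 (-3.07) and the lipid transfer protein gene LTP3 (-0.65) fell, and Fb2 rose by 0.47, with limma adjusted p-values from 4.54e-09 to 0.00202. Another probe set of LTP3 gave -0.20 and did not pass. The mean of the 5 lay between 1.14 and 1.17 in control arrays and between -1.30 and -1.08 in drought arrays. Differences of these markers and of RCA1 are as deposited, and other scalings are not given for them. Centring on the hybridisation spike-ins lowers every difference, since their array medians were 0.25 log2 units higher in drought. Whether any of these markers is near 0 cannot be read from centred values, and their part in the fall of CHS3, DFR and cdn1 was not tested.

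The scaling of the arrays moved the size of the members' differences and not their direction. The array medians of the 27 hybridisation spike-in probe sets were 0.25 log2 units higher in drought. With arrays centred on them the difference was -4.15 for DFR, -3.71 for CHS3 and -2.09 for cdn1. With quantile normalization of the deposited values it was -3.09, -2.73 and -1.55 in the same order.

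**Figure D4:**
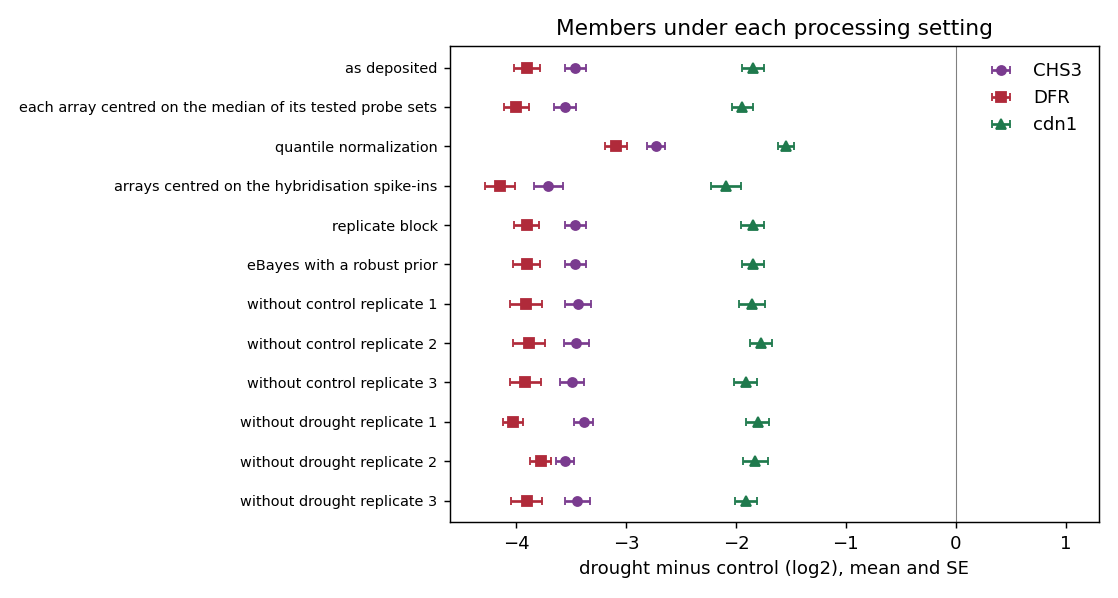
Drought minus control log2 difference (horizontal axis, bars the SE) of CHS3, DFR and cdn1 as deposited, under 3 other scalings, with a replicate block, with a robust prior, and without each array in turn. DFR is lowest, then CHS3, then cdn1 in each setting, and quantile normalization gives the smallest differences. This order could not change under array centring, which shifts every gene alike. The replicate block and the robust prior leave the differences as they are.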

How the data were processed

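The authors' deposited log2 values were made with RMA, per the submitters' processing notes; its version and how values were centred are not given in the sources used here. Both the log2 scale and the direction (higher for more signal) follow from RMA; the centring follows from row medians of 0. Of the 24132 probe sets with values, 103 Affymetrix control probe sets were left out of the fit. Another 52 reporter probe sets stayed among the tested ones. Gene names came from the platform's gene table (697 probe sets with 1 gene, 46 with several) and RefSeq synonyms of Gossypium_hirsutum_v2.1, where all 520 genes matched. Positions are left out, as the array comes with no named build, and promoter motifs were not searched, since no sequence was given.

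Drought was compared with control with limma 3.58.1 (lmFit, eBayes) in R 4.3.3, without a block, with p-values adjusted by Benjamini-Hochberg over 24029 probe sets. Each SE and adjusted p is from that fit, save where another setting or a left-out array is named. Number of arrays limits precision. Where a gene had several probe sets, sense design came before antisense, then the suffix _at, _a_at, _s_at and _x_at. Named genes are the members, the pathway list and, per member, the 3 named genes nearest in value, of which 1 is not reported here; members and lists were chosen with earlier results of these data known. Alternatives were other scalings, a replicate block, a robust prior and leaving out each array.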

Additional observations from a re-analysis of the deposited data

How the results depend on the processing

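The replicate block and the robust prior leave differences unchanged by construction. In every setting run the differences of CHS3, DFR and cdn1 stayed negative. They moved by more than the spread between replicates under 2 settings: quantile normalization gave -2.73, -3.09 and -1.55, and centring on the hybridisation spike-ins -3.71, -4.15 and -2.09. Centred values have near mirror-image distributions in the groups, which quantile normalization evens out by construction. The part of this in the smaller differences was not tested. Without 1 array at a time the values were -3.55 to -3.39 for CHS3, -4.03 to -3.78 for DFR and -1.91 to -1.77 for cdn1.

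Of the 6 genes of the pathway list 5 to 6 were lower without 1 array, and 6 to 7 of the 7 with CCoAMOT2 added after the data had been seen, with 0 higher; CHS6 was the gene lost. The antisense-design CHS2 probe set that gave -0.09 passed as lower with spike-in centring (-0.34, limma adjusted p = 0.0361).

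Over all tested probe sets 8485 were higher, and 3989 with spike-in centring. Of the probe sets called, 63.4% were higher as deposited, 53.1% with arrays centred on their medians, 50.9% after quantile normalization and 35.5% with spike-in centring; the cause was not tested. Leaving out 1 array gave 11878 to 13092 changed probe sets, 7409 to 8275 higher and 4465 to 5089 lower, and 61.1% to 64.7% higher.

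Same-numbered arrays shared little: their deviations from the group means correlated at 0.03, 0.05 and 0.07, each the highest for its array. The numbers were not taken as pairs because the labels do not state that they pair the samples. With the replicate block 13244 probe sets changed in place of 13380, and 6 genes of the list were lower. The members' differences were as given, which is fixed in advance where each block holds an array of both groups.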
